A study of Homo sapiens with 12 samples.

Results

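Regions enriched for CASP8AP2 in ChIP-Seq were compared between hTERT-RPE1 cells, retinal pigment epithelial cells immortalized with telomerase (hTERT), and U2OS cells, an osteosarcoma line. A listed region was kept when it held at least 30 ChIP sequences and when (ChIP+1)/(IgG+1), called the ratio here, was at least 3. These limits kept 100 of 164571 listed regions in hTERT-RPE1 and 386 of 250372 in U2OS, which is 486 regions in all and 456 after overlapping regions of the 2 lines were merged. The kept regions were 0.0608% and 0.154% of the listed ones, and 14.6% of the 683 (hTERT-RPE1) and 10.6% of the 3658 (U2OS) that held at least 30 ChIP sequences. Regions of 1 kb or longer are called broad, shorter ones with a height of at least 90% of their ChIP sequences are called stacked, and the rest are called short unstacked. The height is the number of reads over the summit, so in a stacked region nearly all reads lay over 1 position.

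In the study CASP8AP2, NPAT, HINFP and E2F1 were immunoprecipitated from both cell lines, with normal goat IgG as the control for HINFP and normal rabbit IgG for the other three factors. No treatment was named in the sample labels, and no sort or synchronization. Each factor had 1 library per line. Differences between the lines therefore have no replicate check, and no test between them was possible. The rabbit IgG library of a line was the control for both CASP8AP2 and NPAT. Regions with the same ends in both lists numbered 21 in hTERT-RPE1 and 26 in U2OS, and their IgG counts were the same at all 21 and 26. Ratios of both factors thus rest on the same IgG library, although the IgG counts differ where the ends of the regions do, and they are given side by side.

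CASP8AP2, also known as FLASH, is a component of the histone locus body, the nuclear body that forms at replication-dependent histone genes. There it works in the transcription of histone genes and in the processing of their mRNAs, which end in a stem-loop in place of a poly(A) tail. NPAT is the cyclin E-CDK2 substrate that nucleates the same body, HINFP binds histone H4 promoters, and E2F1 activates genes of the G1/S transition. In human cells most replication-dependent histone genes lie in a cluster on the short arm of chromosome 6, with a smaller cluster on the long arm of chromosome 1.

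The enriched regions fell into distinct shapes. In hTERT-RPE1 there were 25 broad, 14 stacked and 61 short unstacked regions, and in U2OS 67 broad, 17 stacked and 302 short unstacked regions. Broad regions had a median length of 1200 bp in hTERT-RPE1 and 1138 bp in U2OS. Their height was a median of 32.4% and 32.6% of their ChIP sequences, so the reads were spread along the region. Stacked regions had a median length of 391.5 bp in hTERT-RPE1 and 391 bp in U2OS. The median height share was 99.8% and 97.8%, and in length the stacked regions ran from 384 to 534 bp in hTERT-RPE1 and from 384 to 689 bp in U2OS.

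**Figure D1:**
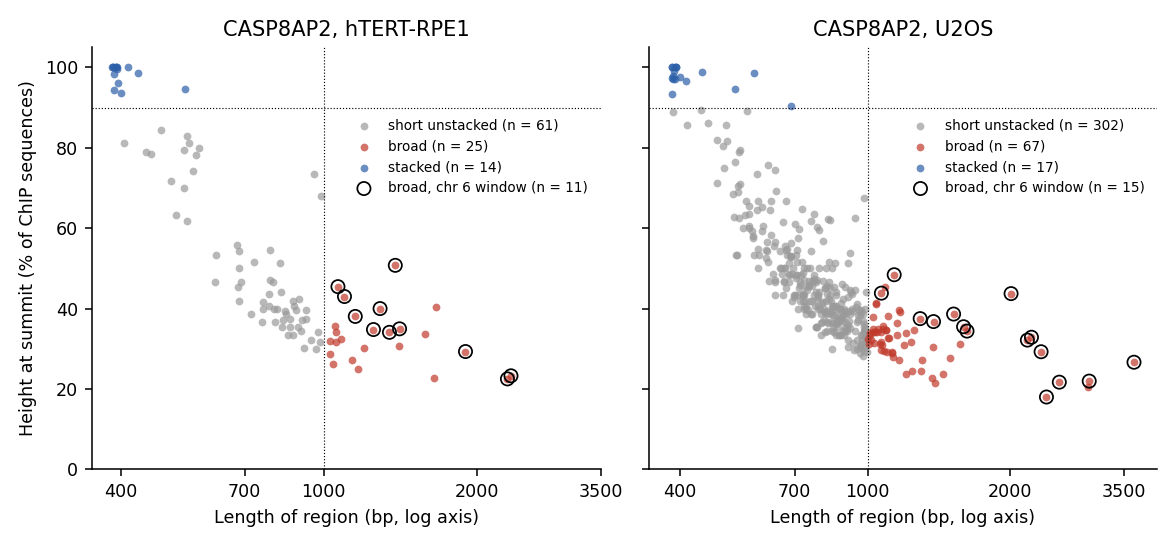
Length of each enriched CASP8AP2 region in bp (x axis, log scale) against its height as a percentage of its ChIP sequences (y axis), with hTERT-RPE1 on the left and U2OS on the right, points coloured by class and rings around broad regions of the 3 Mb chromosome 6 window around the main histone gene cluster. The stacked regions sit near 100% at about 390 bp, and the longest broad regions, of 2334 bp in hTERT-RPE1 and 3671 bp in U2OS, are ringed.

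The ratio was higher in the stacked class than in the broad class. Its median was 9.53 for stacked regions in hTERT-RPE1 (3 to 39) and 5.83 in U2OS (3.08 to 72.0). For broad regions the median ratio was 3.88 in hTERT-RPE1 (3 to 7.50) and 3.73 in U2OS (3 to 9.60). The ChIP counts themselves were of similar size, with medians of 54.5 and 69 for stacked and broad regions of hTERT-RPE1 and of 52 and 48 in U2OS. The rabbit IgG counts differed more: their medians were 8 and 16 for stacked and broad regions of hTERT-RPE1, and 6 and 13 in U2OS. All these counts are per region and not per kb. Stacked regions were much shorter, with median lengths of 391.5 and 391 bp against 1200 and 1138 bp for broad regions. Fewer IgG sequences in a stacked region therefore do not mean a lower IgG density.

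Near the limits the values ran on without a gap, except for the height share in hTERT-RPE1. The ratios just inside the limit were 3 in both lines, shared by 6 regions of hTERT-RPE1 and 33 of U2OS, and just outside they were 2.93 and 2.97. At 30 ChIP sequences there were 14 and 56 regions, and at 29 there were 17 and 67. The shortest broad regions measured 1027 bp in hTERT-RPE1 and 1002 bp in U2OS, and the longest regions below the limit 987 and 995 bp. The lowest height share among stacked regions was 93.8% in hTERT-RPE1 and 90.4% in U2OS, and the highest outside the class was 84.5% and 89.5%.

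Broad regions were concentrated in a 3 Mb window of chromosome 6 set around the main histone gene cluster, in which the enriched regions ran from position 26125309 to 28430440 (NCBI36). Of the broad regions, 11 of 25 lay there in hTERT-RPE1 (44.0%, 95% Wilson interval 26.7 to 62.9%) and 15 of 67 in U2OS (22.4%, 14.1 to 33.7%). Of all broad regions with at least 30 ChIP sequences, whatever their ratio, 7.73% and 1.33% were in the window. With a limit of 2 on the ratio the shares were 26.7% in hTERT-RPE1 and 4.84% in U2OS. With a limit of 5 they were 50% (2 of 4) and 64.3% (9 of 14). The order of the lines was reversed at that limit, but on few broad regions of hTERT-RPE1 in the window. None of the 14 and 17 stacked regions lay there, and of all stacked regions with at least 30 ChIP sequences 0.00% did in each line. The window further held 4 short unstacked regions in hTERT-RPE1 and 7 in U2OS, which made 15 and 22 enriched regions in all. Which genes lie under each region was not analysed here, because the files carry NCBI36 positions and no annotation of that build was used.

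Within the window the broad regions of U2OS were longer and held more reads. Their median length was 2014 bp against 1347 bp in hTERT-RPE1, and the median ChIP count was 213 (68 to 349) against 123 (69 to 160). Rabbit IgG counts per region were also higher, with medians of 32 in U2OS and 25 in hTERT-RPE1. Over longer regions this does not mean a higher IgG density. The median ratio was 5.29 in U2OS and 4.03 in hTERT-RPE1, and the ranges, 3.68 to 8 and 3.17 to 6.05, overlapped.

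Merging the broad regions of both lines gave 19 sites in the window, of which 10 were enriched in both lines, 7 in U2OS alone and 2 in hTERT-RPE1 alone. At 14 of the 19 sites a CASP8AP2 region was listed in both lines, so that the counts can be compared. For these sites the counts of all listed regions in a site were summed. ChIP counts ran from 12 to 209 in hTERT-RPE1 (median 116) and from 68 to 349 in U2OS (median 221), and were higher in U2OS at 12 of the 14. IgG counts ran from 6 to 54 and from 8 to 61, and were higher in U2OS at 11.

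After division by IgG the lines came closer. The ratio in U2OS over that in hTERT-RPE1 had a median of 1.29 over the 14 sites (0.637 to 3.10), and it was above 1 at 11 of them. Summed over the 14 sites, hTERT-RPE1 had 1496 ChIP and 390 IgG sequences over 21354 bp, a ratio of 3.83 (exact 95% interval 3.43 to 4.3). U2OS had 2751 and 532 over 28042 bp, a ratio of 5.16 (4.71 to 5.68). Per kb of listed region this was 70.1 ChIP and 18.3 IgG sequences in hTERT-RPE1, and 98.1 and 19.0 in U2OS. The intervals cover counting error only, the summed lengths differed, and site by site the intervals of the lines overlapped at 12 of the 14. The sites were chosen for enrichment in either line, and more of them came from U2OS, so the direction is favoured by the choice.

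**Figure D2:**
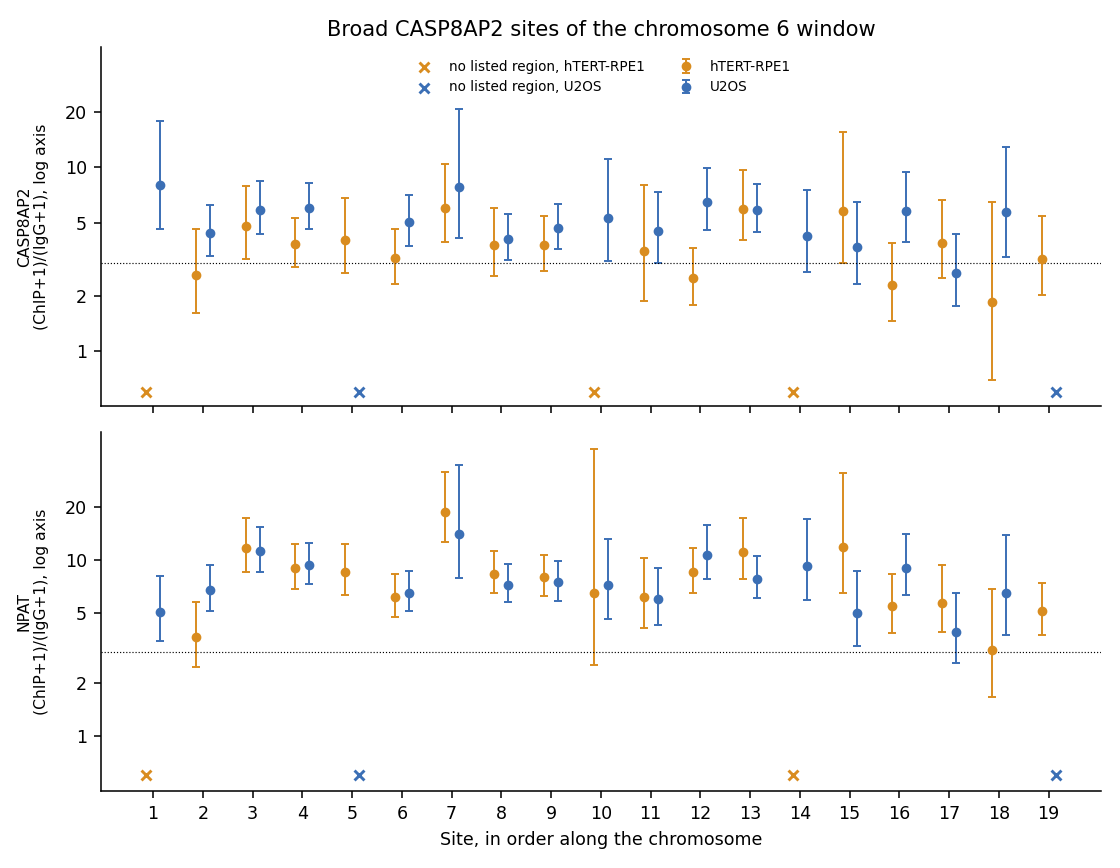
Ratio of ChIP to IgG sequences (y axes, log scale, with 1 added to each count) for CASP8AP2 (top) and NPAT (bottom) at the 19 broad CASP8AP2 sites of the chromosome 6 window, numbered along the chromosome (x axis), in hTERT-RPE1 and U2OS. Bars are exact 95% intervals for counting error, crosses mark sites where no region was listed in that line, and the dotted line is the limit of 3. The CASP8AP2 intervals of the lines overlap at 12 of the 14 sites listed in both.

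At some sites the ratios of the lines were close, and at others they were not. At site 3 (chromosome 6, 26134278 to 26136296) there were 123 ChIP and 25 IgG sequences in hTERT-RPE1 and 263 and 44 in U2OS, ratios of 4.77 and 5.87. At site 13 (27207563 to 27210539) the counts were 159 and 26 in hTERT-RPE1 and 328 and 55 in U2OS, ratios of 5.93 and 5.88. The U2OS counts at site 13 were thus about doubled for antibody and control alike. Site 4 (26138980 to 26142650) was the longest: U2OS listed it as 1 region of 3671 bp with 349 ChIP and 57 IgG sequences, whereas hTERT-RPE1 listed 3 regions with 209 and 54 in all. Its ratios were 3.82 in hTERT-RPE1 and 6.03 in U2OS.

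Site 7 (26211534 to 26212916) went the other way in counts. It held 132 ChIP and 21 IgG sequences in hTERT-RPE1 and 69 and 8 in U2OS, with ratios of 6.05 and 7.78. NPAT fell from 410 sequences in hTERT-RPE1 to 140 in U2OS, HINFP from 151 to 37 and E2F1 from 43 to 16 in the listed regions of this site. All 4 factors and the rabbit IgG thus had fewer sequences in U2OS there, while the CASP8AP2 ratio did not drop. The listed CASP8AP2 region was also shorter in U2OS, 825 against 1383 bp. The NPAT ratio was 18.7 in hTERT-RPE1 and 14.1 in U2OS, that of HINFP 10.1 and 6.33, and that of E2F1 2.10 and 2.83. Site 17 (27885617 to 27886770) also had fewer CASP8AP2 sequences in U2OS, 79 against 92, with 29 and 23 IgG sequences.

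The intervals of the lines stood apart at 2 sites, both with the higher ratio in U2OS. At site 12 (26312413 to 26314637) hTERT-RPE1 had 116 ChIP and 46 IgG sequences and U2OS had 213 and 32, ratios of 2.49 and 6.48. At site 16 (27222413 to 27224009) hTERT-RPE1 had 61 and 26 and U2OS 155 and 26, ratios of 2.30 and 5.78. At both sites the IgG count was no higher in U2OS. NPAT had 476 ChIP and 55 IgG sequences at site 12 in hTERT-RPE1 and 407 and 37 in U2OS, so it was enriched in both lines there. At site 16 NPAT had 190 and 34 in hTERT-RPE1 and 279 and 30 in U2OS.

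At 5 sites only 1 line listed a CASP8AP2 region. The 3 of U2OS were site 1 (26125309 to 26126446, 95 ChIP and 11 IgG sequences), site 10 (26304862 to 26305930, 73 and 13) and site 14 (27214500 to 27216020, 88 and 20). NPAT was listed in U2OS at all 3, with 146, 137 and 166 sequences. In hTERT-RPE1 an NPAT region was listed at site 10 alone, with 25 ChIP and 3 IgG sequences. HINFP had 85 ChIP and 6 IgG sequences at site 14 in U2OS and no listed region there in hTERT-RPE1.

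The 2 sites of hTERT-RPE1 were site 5 (26153461 to 26154559, 100 ChIP and 24 IgG sequences) and site 19 (27942152 to 27943442, 75 and 23). NPAT had 376 ChIP and 43 IgG sequences at site 5 in hTERT-RPE1 and 230 and 44 at site 19. These NPAT regions were 3455 and 3210 bp long and so reached past the sites of 1099 and 1291 bp. The NPAT region of site 5 also overlapped 26151405 to 26152389. There U2OS listed CASP8AP2 with 9 ChIP and 5 IgG sequences and NPAT with 31 and 8. In U2OS no region overlapping either site was listed for any of the 4 factors. At these sites CASP8AP2 and NPAT were thus listed or not listed together. A region enters a list only with a height of at least 8, so a site without one may hold reads below that height, and the number of DNA copies per line was not measured.

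NPAT was enriched by the same limits at 11 of 11 broad window regions of hTERT-RPE1 and 15 of 15 of U2OS. The same held for 100% of the 16 broad window regions of hTERT-RPE1 with at least 30 CASP8AP2 sequences, whatever their CASP8AP2 ratio. In U2OS that wider set was the same 15 regions, so it gives no separate comparison. The median NPAT ratio at the members was 8.57 in hTERT-RPE1 (5.13 to 18.7) and 7.84 in U2OS (5 to 12.4). These were above the CASP8AP2 medians of 4.03 and 5.29 over the same IgG library. The median distance between the CASP8AP2 and NPAT summits was 61 bp in hTERT-RPE1 and 54 bp in U2OS. Over the 14 sites listed in both lines, the NPAT ratio in U2OS over that in hTERT-RPE1 had a median of 0.966 (0.421 to 2.10) and was above 1 at 6.

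HINFP passed the limits at fewer of these regions. It was listed at 6 of the 11 broad window regions of hTERT-RPE1 and enriched at 3, against 43.8% and 18.8% of the broad window regions with at least 30 CASP8AP2 sequences. In U2OS, where the 15 were all such regions, it was listed at 10 (66.7%) and enriched at 4 (26.7%). Outside the window it was enriched at 0 of 14 and 0 of 52 broad CASP8AP2 regions, against 0.00% and 0.269%. Among all broad regions with at least 30 CASP8AP2 sequences it was enriched at 1.45% and 0.619%. E2F1 was enriched at 4 of 25 broad regions in hTERT-RPE1 and 11 of 67 in U2OS, against 4.35% and 3.45% of the broad regions with at least 30 ChIP sequences. Inside the window E2F1 was enriched at 2 of 11 and 3 of 15, with median ratios of 1.90 and 1.60. In hTERT-RPE1 this was near the 12.5% of all broad window regions with at least 30 CASP8AP2 sequences. In U2OS the 15 were all such regions (20%), so no wider share stands beside them.

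Broad regions outside the window had a listed region in the other line more often than an enriched one, but not more often than all such regions did. Of the 14 in hTERT-RPE1, 7 had a listed CASP8AP2 region in U2OS, and 1 had an enriched one, against 76.4% and 2.09% of the broad regions elsewhere with at least 30 ChIP sequences. Of the 52 in U2OS, 23 had a listed region in hTERT-RPE1 and 0 an enriched one, against 45.3% and 0.179%. The Wilson interval of 0 of 52 reaches 6.88%, so the enriched counts were near the share of all such regions and single out nothing about the members. Their counts were also lower than in the window: the median was 41.5 ChIP sequences in hTERT-RPE1 and 44 in U2OS. In the other line the listed regions held a median of 17 sequences for those of hTERT-RPE1 and 12 for those of U2OS, with median ratios of 1.5 and 1.30.

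The broad regions outside the window with the most and the third most ChIP sequences in U2OS lay next to each other on chromosome 1. The region at 148124575 to 148127512 held 361 ChIP and 79 IgG sequences in U2OS and 54 and 18 in hTERT-RPE1. Its neighbour at 148123375 to 148124568 held 110 and 25 in U2OS and 31 and 17 in hTERT-RPE1. The ratios were 4.53 and 4.27 in U2OS and 2.89 and 1.78 in hTERT-RPE1, and the intervals of the lines overlapped. NPAT was enriched at both in each line, with 330 and 408 sequences in U2OS and 343 and 143 in hTERT-RPE1. CASP8AP2 at this pair thus missed the limit in hTERT-RPE1 while NPAT passed it.

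The broad region outside the window that was enriched in both lines lay at the start of chromosome 18 (98033 to 99698). It held 265 ChIP and 64 rabbit IgG sequences in hTERT-RPE1 and 111 and 30 in U2OS. The HINFP region there in hTERT-RPE1 held 811 ChIP and 781 goat IgG sequences, the highest goat IgG count at any broad region of that line. Other broad regions with many reads had few or no listed reads in the other line. On chromosome 16 (83209144 to 83210722) hTERT-RPE1 had 89 and 11 and U2OS 17 and 7. On chromosome 17 (70021698 to 70022950) U2OS had 133 and 36, and no region of hTERT-RPE1 overlapped it.

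NPAT was enriched at 3 of the 14 broad regions outside the window in hTERT-RPE1 (21.4%) and at 7 of the 52 in U2OS (13.5%). Among broad regions elsewhere with at least 30 CASP8AP2 sequences the share was 1.57% and 1.61%. Over all broad regions, in the window or not, it was 14 of 25 (56.0%) and 22 of 67 (32.8%), against 9.18% and 2.92%. A low count in the shared IgG library raises both ratios at once, so these shares do not stand for 2 independent measurements.

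By contrast with the broad regions elsewhere, stacked regions recurred in the other line. In hTERT-RPE1 11 of 14 stacked regions were enriched in U2OS as well (78.6%, 52.4 to 92.4%), and in U2OS 10 of 17 were enriched in hTERT-RPE1 (58.8%, 36.0 to 78.4%). Of all stacked regions with at least 30 ChIP sequences, 27.1% and 18.5% were. For broad regions the shares were 10 of 25 (40%, 23.4 to 59.3%) and 8 of 67 (11.9%), over 7.25% and 0.884%. The U2OS share was 4.52% with a limit of 2 on the ratio and 22.6% with at least 50 ChIP sequences. Split by position, 9 of 11 and 8 of 15 broad window regions were enriched in both lines. In hTERT-RPE1 this was close to the 68.8% of all broad window regions with at least 30 ChIP sequences. In U2OS the 15 were all such regions (53.3%), so no wider share stands beside them. For short unstacked regions the shares were 8 of 61 (13.1%) and 11 of 302 (3.64%), over 4.67% and 0.647%.

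**Figure D3:**
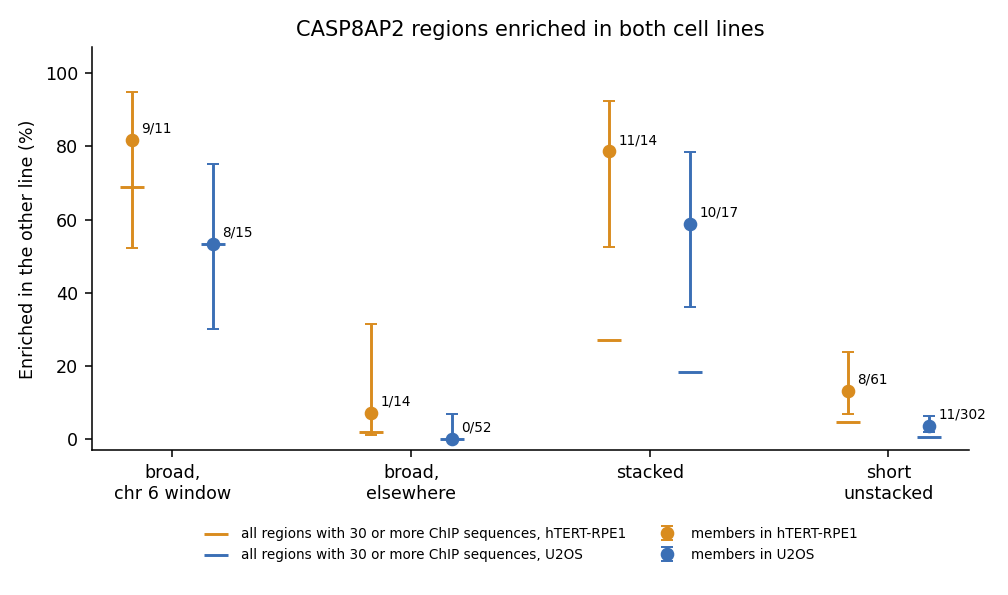
Percentage of enriched CASP8AP2 regions of each class (x axis) that overlapped an enriched CASP8AP2 region of the other cell line (y axis), with counts beside the points and 95% Wilson intervals as bars. Horizontal dashes give the same percentage for all regions of the class with 30 or more ChIP sequences. For broad window regions of U2OS these were the same 15 regions. Broad window and stacked regions reach 53.3% to 81.8%, and broad regions elsewhere 0% and 7.14%.

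Stacked and shared broad regions differed in how exactly they matched. Both ends of a stacked region were within 20 bp of the ends of the CASP8AP2 region of the other line at 12 of 14 in hTERT-RPE1 and 13 of 17 in U2OS. They were within 20 bp of an NPAT region of the same line at 10 of 14 and 10 of 17. Such ends were about as common in stacked regions of any ratio with at least 30 ChIP sequences, at 75.0% and 72.2% between the lines and 68.8% and 64.8% with NPAT. For broad regions the count was 0 of 25 and 0 of 67 in each case, over 3.38% and 0.619% between the lines and 2.90% and 0.619% with NPAT. Of these broad regions, 16 and 35 had a listed CASP8AP2 region in the other line, and 18 and 55 a listed NPAT region. All stacked regions had both, so the denominators are not alike. Matching ends thus went with the shape of the region at any ratio.

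The stacked region with most ChIP sequences in hTERT-RPE1 lay on chromosome 11 (51428531 to 51428961). It held 279 ChIP and 37 IgG sequences, with 275 reads over the summit, and in U2OS 386 and 47. The next was on chromosome 10 (41716711 to 41717103), with 226 and 55 in hTERT-RPE1 and 512 and 130 in U2OS, ratios of 4.05 and 3.92. On chromosome 19 (32424426 to 32424819) the counts were 130 and 6 in hTERT-RPE1 and 89 and 2 in U2OS, ratios of 18.7 and 30. These 3 regions were enriched in both lines at nearly the same positions.

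The highest ratios of all came from stacked regions with very few IgG reads. On chromosome X (58577950 to 58578337) U2OS had 215 ChIP and 2 IgG sequences, a ratio of 72.0 with an exact interval on the plain ratio from 29.4 to 893, and hTERT-RPE1 had 129 and 8, a ratio of 14.4. On chromosome 16 (44962288 to 44962679) hTERT-RPE1 had 38 and 0 and U2OS 37 and 1, ratios of 39 and 19. The 5 regions outside the chromosome 6 window with the highest ratio in whichever line was lower were all stacked. Their others lay on chromosome 10 (39122179 to 39122564, 56 and 1 in hTERT-RPE1, 36 and 1 in U2OS) and chromosome 7 (61268261 to 61268647, 53 and 5, 90 and 3).

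At the stacked regions the HINFP and goat IgG libraries had many reads too. At the 14 of hTERT-RPE1 the median count was 54.5 for CASP8AP2, 60.5 for NPAT, 8 for rabbit IgG, 126.5 for HINFP and 128 for goat IgG. At the 17 of U2OS it was 52, 58 and 6, and at the 16 with a listed HINFP region 135.5 for HINFP and 164 for goat IgG. The goat IgG count was above the CASP8AP2 count at 9 of 14 and 13 of 16. At the chromosome 19 region above, goat IgG had 1516 sequences in hTERT-RPE1 and 1475 in U2OS.

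At broad window regions goat IgG was counted over shorter stretches than rabbit IgG. The overlapping HINFP regions measured 354 to 664 bp in hTERT-RPE1 and 322 to 901 bp in U2OS. The broad regions measured 1067 to 2334 bp and 1069 to 3671 bp. The median goat IgG count was 8 in hTERT-RPE1 (6 regions with a HINFP region) and 9 in U2OS (10 regions), where rabbit IgG had 25 and 32. These counts therefore do not mean a lower density of goat than of rabbit IgG. With goat IgG in the denominator the CASP8AP2 ratio was at or above 3 at 6 of 6 and 10 of 10 broad window regions, with medians of 11.3 and 18.1. These values are raised because the goat IgG count came from a shorter stretch than the CASP8AP2 count. Broad regions elsewhere reached 3 at 6 of 9 and 12 of 13, and short unstacked regions at 10 of 25 and 45 of 66, so this was not particular to the window. At the stacked regions it was at or above 3 at 0 of 14 and 0 of 16, with medians of 0.503 and 0.437. The depth of the goat libraries relative to the rabbit ones is not known, and the HINFP regions had their own ends, so these values are side by side and not scaled. Broad and stacked regions are therefore not compared on like lengths by this ratio.

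**Figure D4:**
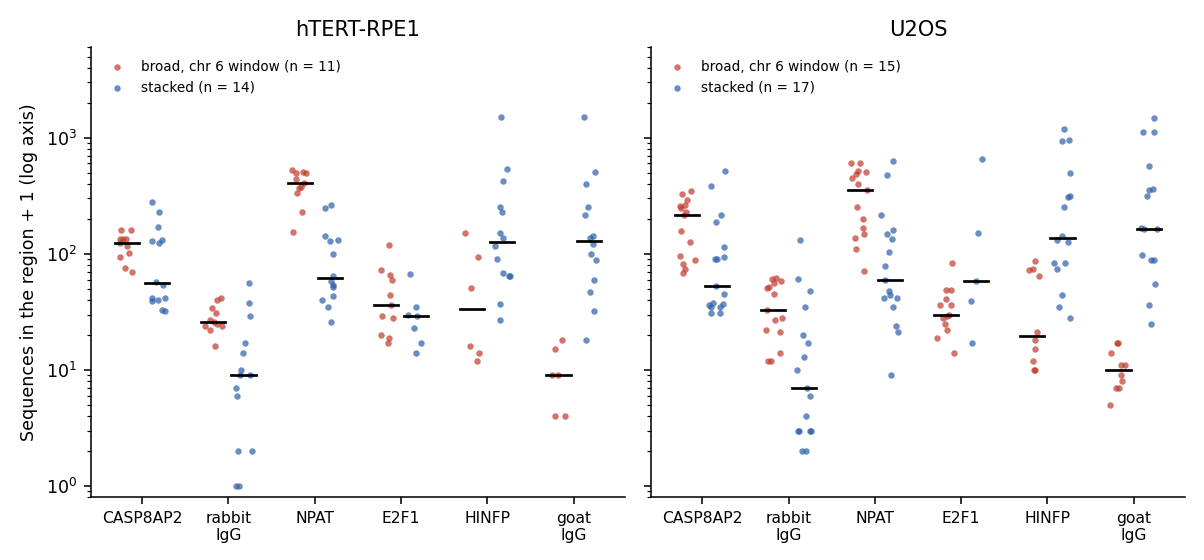
Sequences counted plus 1 (y axis, log scale) in each library (x axis) at broad CASP8AP2 regions of the chromosome 6 window and at stacked CASP8AP2 regions, with hTERT-RPE1 on the left and U2OS on the right, where a point is a region with an overlapping listed region of that factor and lines are medians. At stacked regions the goat IgG medians are 128 and 164 against 8 and 9 at broad window regions. Goat IgG was counted over the overlapping HINFP region, which in the window was shorter than the broad region.

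The other factors over their own controls had these values. HINFP over goat IgG had a median ratio of 1.05 at the stacked regions of hTERT-RPE1 and 0.862 in U2OS, and it was enriched at 0 of 14 and 0 of 17, as at 0.00% of all stacked regions with at least 30 CASP8AP2 sequences in each line. E2F1 was listed at 7 and 5 of them, with median ratios over rabbit IgG of 1.20 and 1.15, and was enriched at 0 of 14 and 0 of 17, again over 0.00% in each line. NPAT over the same rabbit IgG had median ratios of 8.22 and 8 and was enriched at 13 of 14 (92.9%) and 13 of 17 (76.5%), against 27.1% and 24.1% of all stacked regions with at least 30 CASP8AP2 sequences. In each line the stacked regions with NPAT in that larger set also numbered 13, so none of them was outside the CASP8AP2 members. The CASP8AP2 ratio at these regions was set by the limits, the NPAT ratio used the same rabbit IgG library, and the E2F1 medians rest on 7 and 5 regions.

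Stacked regions mostly lay beside the longest stretch of a chromosome without any listed region, a measure chosen after the positions had been seen. Over the 17 chromosomes with such a stretch of at least 1 Mb (6 and Y left out), 10 of 11 stacked regions of hTERT-RPE1 and 11 of 11 of U2OS were within 5 Mb of it. Of broad regions 1 of 12 and 4 of 41 were, over 32.9% and 16.3% of the broad regions with at least 30 ChIP sequences. The stacked regions of any ratio with at least 30 ChIP sequences did so at 75.7% and 75.6%, so this too went with the shape.

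Over all classes, 70 of the 100 regions of hTERT-RPE1 had a listed region in U2OS and 162 of the 386 of U2OS had one in hTERT-RPE1, against 73.4% and 41.0% of the regions with at least 30 ChIP sequences. Intervals of the ratio stood apart at 3 and 18 of these, each time with the higher value in the line whose region had passed the limits. Of the 501 and 1499 matched regions with at least 30 ChIP sequences, 2.0% and 4.34% were apart and higher. Of the 3, 1 was broad and 2 short unstacked. Of the 18, 4 were broad, 1 stacked and 13 short unstacked. Because a region was kept for a high ratio in its own line, these counts favour that line and do not rank the lines.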

How the data were processed

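CASP8AP2 ChIP-Seq lists of hTERT-RPE1 and U2OS cells were analysed, with the NPAT, HINFP and E2F1 lists of the same lines. Chromatin was cross-linked with 1% formaldehyde and sonicated to 200 to 400 bp, and 5 µg of antibody was used. The authors sequenced on an Illumina Genome Analyzer or HiSeq2000 and mapped to NCBI36. The aligner, the peak caller and the handling of duplicate reads are not given in the sources used here. IgG libraries entered only through the counts given for each region.

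The deposited counts are whole numbers of ChIP and IgG sequences per region, not normalized. The deposited height is the signal at the summit, in reads, and is at least 8. The deposited fold change is a ratio, (ChIP+1)/(IgG+1) times a constant per library (0.918 for CASP8AP2 in hTERT-RPE1, 0.915 in U2OS), and the authors deposited an unadjusted p-value per region. Read as depth ratios, which the sources used here do not state, the constants would put CASP8AP2 at 1.09 times the depth of IgG in each line. How many reads each library held in total is not known from the lists. The fold changes and p-values were used only as alternative limits.

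Members were regions with at least 30 ChIP sequences and an unscaled ratio of at least 3. Overlap was at least 1 bp. A region counted as enriched for a factor or in the other line when any overlapping region passed the limits, and where counts or a ratio are given and several regions overlapped, those of the one sharing most bp were used, except at the merged sites, where counts were summed. Members, classes and lists were chosen with earlier results of these data known, and the merged sites and the stretches without regions were added later. Named regions were all broad window members, the 5 broad members elsewhere and the 5 stacked members with most ChIP sequences per line, the 5 enriched in both lines outside the window with the highest lower ratio, up to 5 broad members per line with intervals apart, and the values next to each limit. Shares have 95% Wilson intervals, and ratios of counts have exact 95% Clopper-Pearson intervals on ChIP over IgG without the added 1. Both cover counting error only, and reads without molecular identifiers are not independent molecules. No test between lines was made, with 1 library each. The overlap, class and interval code was tested on simulated regions. Alternatives were other limits on counts, ratio, p-value, length, height and overlap. Scripts ran in Python 3.11.15 with scipy 1.17.1, pandas 2.3.3 and numpy 2.4.6, and figures were drawn with matplotlib 3.10.9.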

Additional observations from a re-analysis of the deposited data

Results flagged for a closer look

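At 8 regions the ratio was at least 3 in U2OS while hTERT-RPE1 had fewer ChIP than IgG sequences. The exact 95% intervals of the lines stood apart at each of them. With 1 library per line the difference was not tested. The largest was a short unstacked region on chromosome 1 (222368222 to 222368883), with 156 ChIP and 15 IgG sequences in U2OS (ratio 9.81) and 15 and 24 in hTERT-RPE1 (0.640). Also on chromosome 1 were broad regions at 153463424, with ratios of 3.73 in U2OS and 0.955 in hTERT-RPE1, and at 203984727, with 4.22 and 0.647. The hTERT-RPE1 intervals of these broad regions, 0.490 to 1.85 and 0.254 to 1.46, included 1, so a reversal was not shown there. The other 5 were short unstacked, on chromosome 10 at 103882258 (3.42 and 0.684), chromosome 15 at 65183763 (5.67 and 0.875), chromosome 16 at 88154244 (4.67 and 0.80), chromosome 19 at 55182113 (3.64 and 0.529) and chromosome 9 at 139257825 (3 and 0.565). At the short unstacked regions hTERT-RPE1 held only 8 to 15 ChIP and 14 to 24 IgG sequences, and a reversal was not shown there either. In the other direction 0 regions of hTERT-RPE1 met these terms, but 70 of its regions were matched against 162 of U2OS. Each region was kept for a high ratio in its own line, so the counts favour that line and do not rank the lines.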

How the results depend on the processing

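No paired analysis was possible because each factor has 1 library per line and no replicate number is shared. Of 286 values recomputed under alternatives, 166 stayed within 1.5 times the count or inside the interval of the share; the rest moved, 84 of them among the values that answer a comparison. With 20 ChIP sequences there were 1128 members in hTERT-RPE1 and 2820 in U2OS, 24 and 37 stacked, 13 and 33 matched regions with intervals apart, and 66.7% of stacked hTERT-RPE1 regions had NPAT. With 50 there were 31 and 62 members, 16 and 31 broad, 8 and 9 stacked and 1 and 11 apart; of broad regions 62.5% and 22.6% were enriched in both lines, 75% and 61.3% had NPAT and 68.8% and 48.4% lay in the window; 100% of stacked hTERT-RPE1 regions had NPAT. With a ratio of 2 there were 235 and 1377 members, 60 and 310 broad, 27 stacked in U2OS and 11 and 43 apart; NPAT was at 36.7% and 18.4% of broad and 66.7% of stacked hTERT-RPE1 regions, and in U2OS 4.52% of broad regions were enriched in both lines and 4.84% lay in the window. With a ratio of 5 there were 27 and 70 members, 4 and 14 broad, 9 and 10 stacked and 5 apart in U2OS; NPAT was at 75% and 71.4% of broad regions, and 64.3% of those of U2OS lay in the window.

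With p under 0.00001 and fold change above 2 added there were 46 and 108 members and 38 broad in U2OS; NPAT was at 76.5% and 52.6% of broad regions and 64.7% and 39.5% lay in the window. With p under 1e-10 there were 24 and 33 members, 10 and 14 broad, 7 stacked in U2OS and 0 and 10 apart; 80% and 42.9% of broad and 85.7% of stacked U2OS regions were enriched in both lines, NPAT was at 90% and 92.9% of broad regions, and 80% and 78.6% lay in the window. With broad from 500 bp there were 83 and 364, of which 22.9% and 4.95% were in both lines, 33.7% and 13.7% had NPAT and 18.1% and 6.04% lay in the window; from 2 kb there were 2 and 9, with 100% and 66.7% in both lines, 100% and 100% with NPAT and 100% and 88.9% in the window. Stacked from 80% gave 26 in U2OS. Goat IgG in place of rabbit IgG was an alternative chosen after seeing the data. With it the ratio reached 3 at 0 of the 14 stacked regions of hTERT-RPE1. In U2OS it did so at 0 of the 16 stacked regions, of 17, that had a goat IgG count. Members of the other classes are given with goat IgG in the results, and regions that were not members were not rechecked. The limits kept different numbers and kinds of regions, and why the values moved was not tested. The share of broad regions in the window was higher in hTERT-RPE1 than in U2OS under each alternative but a ratio of 5. There it was 50% (2 of 4) against 64.3% (9 of 14). The deposited fold change, chromosomes 1 to 22 and X, overlap of 50% and stacked from 95% moved none of these values beyond the limits. No leave-one-out was possible with 1 library per group, and low counts limit the regions near 30 sequences.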

Other observations

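Outside the histone cluster members were also unevenly spread over chromosomes, as were the regions with at least 30 ChIP sequences. In hTERT-RPE1, 23 of 100 members lay on chromosome 10, which held 11.4% of the listed regions and 28.6% of those with at least 30 ChIP sequences. Against the latter share the members were not concentrated there. Of the 23 members, 17 lay above 61 Mb, as did 178 of the 195 chromosome 10 regions with at least 30 ChIP sequences. The listed regions above 61 Mb had a median of 7 IgG sequences against 4 over all chromosomes. In U2OS chromosome 10 had 23 of 386 members, and above 61 Mb the median IgG count was 5, as over all chromosomes. In U2OS 19.7% of the regions with at least 30 ChIP sequences but 24 of 386 members were on chromosome 8, and 11.3% but 18 members on chromosome 22, with a median of 8 IgG sequences on each. The IgG counts thus differed along the genome with the line, and their part in the members' positions was not tested.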
